A study of Mus musculus with 6 samples.

Results

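RNA polymerase II (Pol II) was mapped by chromatin immunoprecipitation and sequencing (ChIP-seq) in cultured mouse fetal myotubes, and the narrow Pol II peaks that lay inside genes, away from every start of transcription, are described here. A peak of Pol II replicate 2 belonged to this set when it was less than 2000 bp wide, shared at least 1 base with a peak of Pol II replicate 1, had its centre inside an annotated gene, and had its centre over 1 kb from the start of every annotated transcript. Of the 17488 peaks of replicate 2, 16699 were narrow, 4431 of these also overlapped a replicate 1 peak, 3351 of those lay in a gene, and 2346 remained after the distance to starts. They lay in 895 genes, so several peaks often share a gene and are not independent of each other. The peaks were chosen by Pol II over input as the peak caller scored it, so their Pol II values are given as a description and carry no test.

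Pol II is the enzyme that transcribes protein-coding genes and many non-coding RNAs. It is loaded at promoters, often pauses shortly downstream of the start, and then elongates through exons and introns until it passes the polyadenylation site, where it slows and is released. ChIP-seq therefore finds the largest density of the enzyme at the starts of most active genes, and a lower, spread density along their bodies. The Pol II antibody (clone 4H8) recognises the heptad repeat in the C-terminal tail of the largest subunit, which is phosphorylated while the enzyme pauses and elongates. Sox6, the other protein mapped in these cells, is a transcription factor of the Sox family with an HMG box and is known in muscle as a repressor of genes of slow fibres.

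All 6 libraries came from myotubes made from primary myoblasts of wild-type C57BL/6 fetal limb muscle (E18.5), cultured in medium with 2% horse serum for 48 h at passages given as 17. The groups were Sox6 ChIP, Pol II ChIP and input DNA, with 2 independent experiments each, so there was no second cell state, and chromatin was fixed with disuccinimidyl glutarate and then formaldehyde in every sample. The comparisons are therefore between a ChIP and its input, and between kinds of peak. The ChIP libraries held 1468604 to 2985437 mapped reads and the inputs 21973495 and 24249850, of which 2.96% to 7.88% repeated the position and strand of another read. All 11 myotube markers found in the annotation had more Pol II than input over their bodies in both replicates, with summed levels of 426 and 445 RPKM (reads scaled to gene length in kilobases and to library size) against 7.70 and 8.29 RPKM in input. Of 19 markers of fibroblasts, endothelium, blood and nerve, 2 were above input in both replicates, Cd68 at 7.03 and 7.83 RPKM and Tubb3 at 0.859 and 0.752 RPKM. The 19 summed to 11.9 and 12.2 RPKM in Pol II and to 8.36 and 8.48 RPKM in input, and the blood marker Hbb-b1 was at 0 in both Pol II libraries.

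The sequences below are 200 bp from the centres of intronic peaks, read from the plus strand of NCBI Build 37 (mm9). They are shown so that the text of these regions can be read beside their values, and capitals mark matches on either strand to the E-box letters CAGCTG or CAGGTG, which myogenic factors of the MyoD family bind, and to the Sox letters ACAAAG or ACAATG. The 4 peaks with the largest Pol II over input whose windows hold no exon were in an intron of the imprinted non-coding RNA gene Rian (chr12:110898141-110898340), in Jph2 (chr2:163189981-163190180), in Cacng1 (chr11:107576671-107576870) and in Nav2 (chr7:56810291-56810490).
Rian: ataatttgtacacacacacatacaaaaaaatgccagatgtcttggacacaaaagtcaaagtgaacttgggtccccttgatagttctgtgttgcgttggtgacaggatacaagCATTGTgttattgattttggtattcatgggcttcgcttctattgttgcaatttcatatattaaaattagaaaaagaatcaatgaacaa
Jph2: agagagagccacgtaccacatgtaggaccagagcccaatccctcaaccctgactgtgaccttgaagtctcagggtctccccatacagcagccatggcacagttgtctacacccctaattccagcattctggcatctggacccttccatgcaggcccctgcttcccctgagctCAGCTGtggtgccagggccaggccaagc
Cacng1: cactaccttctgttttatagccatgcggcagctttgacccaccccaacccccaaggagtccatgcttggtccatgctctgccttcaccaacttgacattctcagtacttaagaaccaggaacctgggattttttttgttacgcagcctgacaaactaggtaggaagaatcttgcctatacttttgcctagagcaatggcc
Nav2: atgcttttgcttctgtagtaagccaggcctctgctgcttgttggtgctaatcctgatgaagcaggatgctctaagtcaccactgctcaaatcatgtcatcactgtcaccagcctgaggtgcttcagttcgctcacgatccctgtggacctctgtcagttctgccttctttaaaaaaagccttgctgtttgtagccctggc
A further 6 of the intronic peaks with the largest Sox6 over input among those called were in Gm10384 (chr15:36803221-36803420), Fig4 (chr10:41012971-41013170), Macf1 (chr4:123301661-123301860), Tmem123 (chr9:7784971-7785170), A430010J10Rik (chr6:67088671-67088870) and Iqsec1 (chr6:90653601-90653800).
Gm10384: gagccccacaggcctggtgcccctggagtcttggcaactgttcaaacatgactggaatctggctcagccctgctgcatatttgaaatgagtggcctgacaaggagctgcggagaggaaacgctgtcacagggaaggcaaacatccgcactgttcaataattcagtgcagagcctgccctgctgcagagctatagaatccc
Fig4: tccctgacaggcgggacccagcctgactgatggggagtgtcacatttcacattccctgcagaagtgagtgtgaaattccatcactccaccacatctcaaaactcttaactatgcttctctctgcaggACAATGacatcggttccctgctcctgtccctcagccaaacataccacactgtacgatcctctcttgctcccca
Macf1: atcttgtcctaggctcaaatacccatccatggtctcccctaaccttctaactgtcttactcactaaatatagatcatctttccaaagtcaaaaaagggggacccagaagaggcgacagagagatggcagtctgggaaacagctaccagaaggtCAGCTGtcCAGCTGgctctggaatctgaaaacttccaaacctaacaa
Tmem123: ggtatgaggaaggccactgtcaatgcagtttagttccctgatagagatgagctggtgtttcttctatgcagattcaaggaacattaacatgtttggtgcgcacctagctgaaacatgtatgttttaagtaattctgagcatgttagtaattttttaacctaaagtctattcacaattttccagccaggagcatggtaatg
A430010J10Rik: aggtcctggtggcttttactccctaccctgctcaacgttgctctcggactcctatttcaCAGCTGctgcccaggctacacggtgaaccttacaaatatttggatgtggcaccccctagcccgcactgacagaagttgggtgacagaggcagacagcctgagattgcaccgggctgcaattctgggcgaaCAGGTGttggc
Iqsec1: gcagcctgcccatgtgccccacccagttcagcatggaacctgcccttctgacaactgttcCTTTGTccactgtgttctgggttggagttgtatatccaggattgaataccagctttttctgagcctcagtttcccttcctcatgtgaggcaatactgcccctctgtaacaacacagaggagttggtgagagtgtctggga
These 10 windows held 5 E-box matches in 3 windows (Jph2, Macf1 and A430010J10Rik) and 3 Sox matches in 3 other windows (Rian, Fig4 and Iqsec1). A match is a description of the letters and does not show that a protein sits there.

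The peaks were 41 to 1981 bp wide, with a median of 561 bp, and lay 1003 to 349010 bp from the nearest start, with a median of 7514 bp. They shared a median of 141 bases with replicate 1 peaks, and the median of the shared part of each peak's width was 34.4%. Of these peaks, 338 (14.4%) lay wholly inside a replicate 1 peak. When at least 50% of the width had to be shared, 868 remained. Of the 2346, 2208 lay in 1 gene and 138 in 2 or more, and 2296 were in a protein-coding gene. The 3 peaks nearest inside the width limit were 1981 bp wide, in N4bp3, Mustn1 and Klf5, and the 3 nearest outside were 2001 bp wide, in Tmem182, Fam132b and Ppfia4. Log2 Pol II over input in replicate 2 was 4.21, 4.97 and 4.58 for the first 3 and 3.74, 3.39 and 2.99 for the others, and in replicate 1 it was 3.18, 3.59 and 3.05 against 2.70, 3.45 and 3.55. At the start limit the nearest inside were in Rimbp3, Sorbs2 and Dlgap4 at 1003, 1006 and 1010 bp, with 4.32, 3.01 and 4.03 in replicate 2 and 3.84, 4.20 and 3.47 in replicate 1, and the nearest outside in Aif1l, Furin and Cirbp at 995, 992 and 990 bp, with 3.13, 2.89 and 3.29 in replicate 2 and 2.77, 3.84 and 3.10 in replicate 1.

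Most of these peaks were in introns, and their share in exons was above the share of exons in the bases of all annotated genes over 1 kb from every start. No share of bases was computed for the host genes alone. The centre of 353 of 2346 peaks lay in an exon of some transcript (15.0%, exact 95% binomial interval 13.6% to 16.6%), while exons make up 6.32% of the gene bases over 1 kb from every start. Coding sequence held 153 centres (6.52%, against 2.69% of bases) and untranslated exon sequence 155 (6.61%, against 2.59%). Within 1 kb of the end of a transcript lay 325 centres (13.9%, interval 12.5% to 15.3%), against 6.56% of bases. These intervals take each peak as independent and cover counting error only, and no test was made of the difference. With exons of the longest transcript alone the share was 11.9%, and it was 28.0% when any base of the peak had to touch an exon. In the longest transcript of each gene the first intron held 636 peaks (27.1%), introns between the first and the last 1197 (51.0%), the last intron 164 (6.99%) and the last exon 173 (7.37%).

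Along the genes the peaks were spread nearly evenly up to the last decile of gene length. The first 9 deciles held between 209 and 256 peaks each, and the last 326. The share in exons rose along the gene, from 2 of 221 peaks (0.905%) in the first decile to 46 of 240 (19.2%) in the ninth and 146 of 326 (44.8%) in the last. The rise was not steady, with 11.4% in the sixth decile and 9.30% in the seventh. The rule itself removes peaks close to starts, which touches the first decile of short genes most. No share of exonic bases was computed for each decile, so the rise in exonic peaks has no background to be read against.

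**Figure D1:**
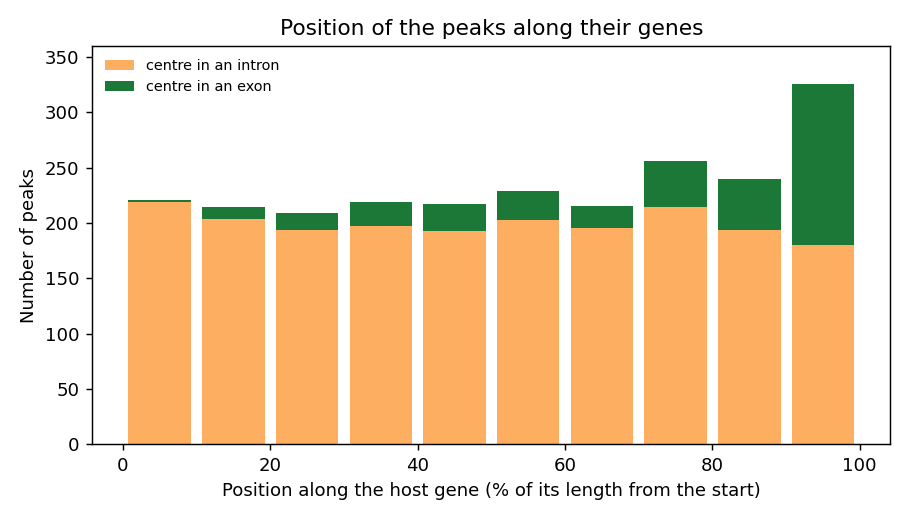
Number of gene-body Pol II peaks (y axis) in each decile of the length of their host gene (x axis, % from the start), split by whether the centre lay in an exon or an intron. The last decile holds 326 peaks, of which 146 are exonic, while the others hold 209 to 256.

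The read density around these peaks was a modest rise on an already raised plateau. Each value is the number of reads that begin within 450 bp centred on the peak, scaled to 1000000 mapped reads (RPM). The median peak held 7 and 12 Pol II reads in replicates 1 and 2 (4.55 and 4.34 RPM), 8 and 10 input reads (0.364 and 0.412 RPM), and 2 and 1 Sox6 reads, while reads laid evenly over the genome would give 0.169 RPM. Log2 of Pol II over input had medians of 3.53 and 3.39 in the 2 replicates. Between the replicates this value differed with an SD of 1.06 over peaks, and 791 peaks (33.7%) differed by more than 1, so single peaks of ordinary height are imprecise. At 2338 peaks Pol II was above input in both replicates, and at the other 8 it was not in 1 or both.

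Peaks whose input exceeded 10 times the median of the gene-body peaks (18 reads in both input libraries together) were left out of the following means, which kept 2343 of the 2346 gene-body peaks, 1341 of the 1348 narrow peaks at gene starts and 734 of the 737 narrow peaks outside genes. The mean Pol II level 2 kb to either side of gene-body peaks was then 61.9% and 65.0% of that at the centre, and at 5 kb 55.2% and 58.9%. With all 2346 counted it was 61.3% and 64.6% at 2 kb and 54.6% and 58.5% at 5 kb. The 1341 peaks at starts fell to 33.2% and 36.4% at 2 kb and to 24.8% and 27.4% at 5 kb, and all 1348 to 29.3% and 32.1%, and 21.4% and 23.8%. Summed over the 2343 peaks, Pol II was 11.4 and 10.6 times input at the centre and 8.14 and 8.20 times input at 2 kb, and over all 2346 it was 10.4 and 8.26 times at the centre and 8.03 and 7.97 times at 2 kb. Over the 1341 peaks at starts it was 17.7 and 14.0 times input at the centre and 5.73 and 5.86 times at 2 kb, and over all 1348 it was 7.73 and 2.10 times at the centre and 5.18 and 4.10 times at 2 kb. The centre values at starts thus rest on leaving out 7 peaks. Exonic peaks stood at 13.3 and 12.5 times input and intronic ones at 11.2 and 10.3 times, with 9.99 and 9.55 against 7.84 and 7.97 at 2 kb. At the centre, mean Pol II was 4.67 and 4.64 RPM in exonic and 4.58 and 4.45 RPM in intronic peaks. Mean input was 0.350 and 0.371 against 0.411 and 0.431 RPM, so the 2 kinds differed there more in input than in Pol II. With all 1993 intronic peaks counted, the intronic value at the centre was 7.77 times in replicate 2, and the values at 2 kb were 7.72 and 7.71 times. The choice of peaks by Pol II fixes the height at the centre in all these sets. The flanks are not free of it either, since the rule keeps gene-body peaks inside genes and 55.4% of them lay within 5 kb of another, so these values are a description.

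**Figure D2:**
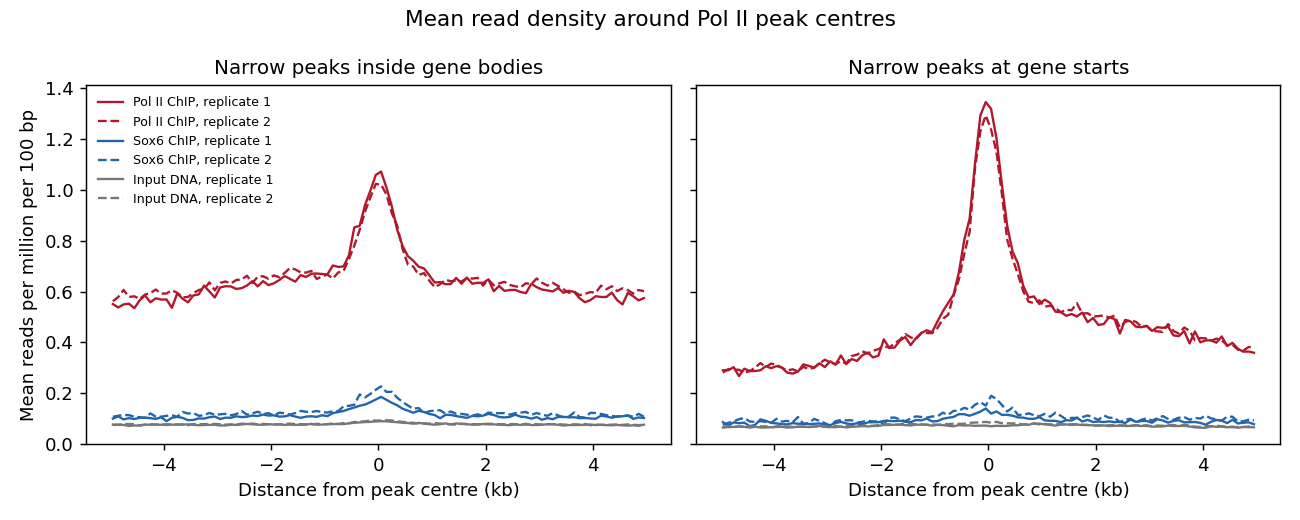
Mean RPM per 100 bp (y axis) against distance from the peak centre in kb (x axis) for the gene-body peaks, oriented by their gene, and for narrow peaks at starts, both without the peaks of high input, with 1 line per library. Both Pol II lines fall from the centre to a plateau inside genes, at 61.9% and 65.0% of the centre level 2 kb away in 450 bp windows, and to a lower level around starts.

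The genes that held these peaks were long and carried much Pol II. Of the 22367 protein-coding genes, 856 (3.83%) held at least 1 peak, 576 of all 895 host genes held 1 each, 225 held 2 to 4, and 39 held 10 or more. Those 39 genes held 829 peaks, 35.3% of the set, and 1300 peaks (55.4%) lay within 5 kb of another. The median length of protein-coding host genes was 34060.5 bp, against 14897 bp in the 21511 others. Their median Pol II level over the whole gene was 3.54 and 3.64 RPKM, against 0.385 and 0.377 RPKM in the others, and the median input was 0.682 and 0.706 against 0.442 and 0.458 RPKM. The peaks were called on Pol II, so a raised Pol II level in their genes was fixed by the choice. The rule also needs a centre inside the gene and over 1 kb from every start. A greater length of host genes was thus partly fixed as well. A replicate 2 peak within 1 kb of one of the gene's own starts was present in 571 of the 856 (66.7%, interval 63.4% to 69.9%), and in 3384 of all 22367 (15.1%). The gene-body peaks themselves were not left out of this count. The edge of a wide one can reach within 1 kb of a start, as in Cacng1 (1961 bp wide, centre 1065 bp from a start). The higher share in host genes is thus partly fixed by the choice.

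The 5 genes with most peaks were Macf1 with 79, Nav2 with 60, Ncam1 and Neb with 51 each, and Spnb2 with 40. Macf1 (microtubule-actin crosslinking factor) links microtubules to actin filaments. Its 79 peaks lay a median of 2560 bp apart, between 17.9% and 97.5% of its 334728 bp, with 11 in exons. Pol II at them ran from 0 to 9.75 RPM with a median of 5.20 in replicate 1, and from 1.09 to 10.1 RPM with a median of 4.71 in replicate 2, while input medians were 0.410 and 0.371 RPM. Nav2 (neuron navigator 2) had none of its 60 peaks in the first 34.2% of its 363899 bp, and no replicate 2 peak within 1 kb of any of its annotated starts. Ncam1, a cell adhesion molecule of the immunoglobulin family, held 51 over 296771 bp, of which 1 was exonic. Neb encodes nebulin, the giant protein that runs along the thin filament, and held 51 over 202152 bp, or 2.52 per 10 kb, the most of these 5. Spnb2 encodes a β-spectrin of the membrane skeleton and held 40, from 2.37% to 99.8% of its length.

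Of the next 5, Celf2 and Rbfox2, regulators of splicing, held 28 and 25 peaks, Dclk1, a microtubule-associated kinase, 27, Ryr1, the calcium release channel of the sarcoplasmic reticulum, 27, and the transcription factor gene Runx1 26. In Celf2 and Rbfox2, as in Nav2, no peak of the set lay in the first part of the gene, up to 31.4% and 39.9% of the length. Peaks of replicate 2 alone are not in the set, and Celf2 held 108 of them and Rbfox2 4. In Neb, Spnb2, Ryr1, Dclk1 and Runx1 the first peak lay within 4.53% of the length or nearer. Replicate 2 alone, or a broad peak, accounted for many other peaks in the same genes: of 157 replicate 2 peaks in Macf1, 51 did not overlap replicate 1 and 21 were broad.

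**Figure D3:**
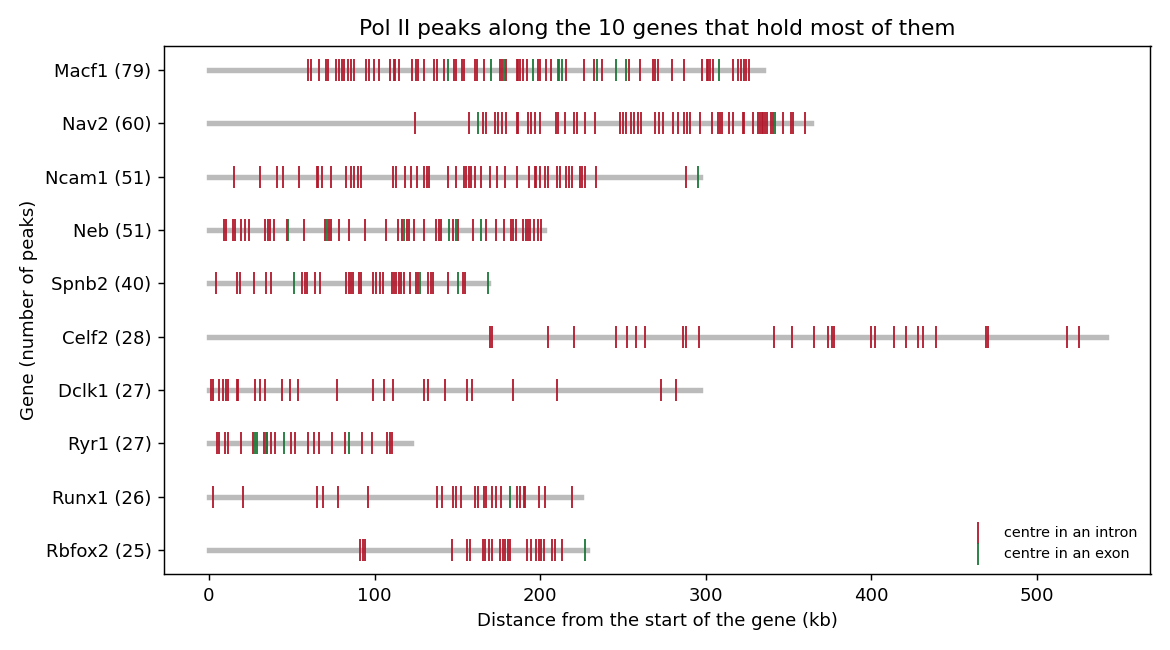
Position of each gene-body Pol II peak (tick) along the 10 genes that hold most of them, in kb from the start of the gene (x axis), with the grey bar giving the gene's length and colour the exonic or intronic centre. Peaks span most of Neb, Spnb2 and Ryr1, and are missing from the first 34.2% of Nav2, 31.4% of Celf2 and 39.9% of Rbfox2.

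Genes of the muscle programme were counted from lists of known members, which were put together with earlier results of these data known and so are no independent evidence. Of the genes for giant, Z-disc and M-band proteins, 17 of 31 held a peak, with 139 peaks in all, among them 51 in Neb, 17 in Actn2 (α-actinin of the Z-disc), 14 in Ldb3 and 11 in Ttn. Of the genes for calcium handling and excitability 13 of 25 held one, with 97 peaks led by Ryr1 with 27 and Cacna1s, the pore of the T-tubule calcium channel, with 18. Cytoskeleton and adhesion genes followed with 14 of 29 and 108 peaks, and a list of muscle regulators with 13 of 36 and 110 peaks, of which the splicing regulator Celf2 held 28 and the transcription factors Runx1, Tead4 and Mef2c 26, 19 and 18. That list joins transcription factors with regulators of splicing and RNA (Celf1, Celf2, Rbm20 and Rbm24). Of the contractile genes of the sarcomere 7 of 29 held a peak, 16 in all, with 9 in Mybpc1, a slow isoform of myosin binding protein C. Lower shares were found for energy metabolism, with 5 of 21 genes and 10 peaks, extracellular matrix, with 3 of 26 and 17 peaks, 15 of them in Hspg2, and growth and signalling, with 3 of 30 and 6 peaks. The background is 3.83% of all protein-coding genes. Peaks of 2000 bp or wider and peaks near starts are not counted, so these shares do not measure Pol II over the genes. Myh3, at 73.3 and 77.8 RPKM in Pol II, held 1 peak of the set. The median gene length of the lists ran from 14153 to 71698 bp, against 14897 bp in the protein-coding genes without a peak, and the part of gene length in these shares was not tested.

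Among the sarcomere genes, the peak with most Pol II was in intron 24 of 39 of Myh3, the embryonic myosin heavy chain (chr11:66906771-66907431, 63.8% along the gene). It held 68 and 118 Pol II reads, or 44.2 and 42.7 RPM, against 3 and 5 input reads, and was the highest of the whole set by the lower of its 2 log2 ratios, 8.13 and 7.56. The replicates lay close together and far above input. Pol II was also high over the whole of Myh3, at 73.3 and 77.8 RPKM, which are per kb where the peak values are per 450 bp. The height of the peak over its own gene was not tested. Other myosin heavy chain genes lie beside Myh3, and a read was kept by the authors only where it mapped to a single place. In Tpm1 (tropomyosin) the leading peak held 11 and 14 Pol II reads against 4 and 4, and in Myh8, the perinatal myosin heavy chain, 9 and 15 against 7 and 8. Mean ratios of these 2 thus rest on few reads.

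Ttn encodes titin, the molecular spring of the sarcomere, and its 3 leading peaks, all in coding exons, were also among the 10 highest of the set. The peak at chr2:76553591-76553751, 95.8% along the gene, held 22 and 29 Pol II reads against 3 and 3 in input. The peak at chr2:76626551-76628111 held 11 and 36 against 2 and 4, and that at chr2:76628811-76629871 held 27 and 28 against 10 and 5. In RPM the third was higher in replicate 1, at 17.5 and 10.1, and the second in replicate 2, at 7.15 and 13.0. All 3 lie in a gene with 191 introns, where exons follow closely on each other. Over the whole of Ttn, Pol II stood at 21.3 and 22.3 RPKM. Taken per kb, the second peak was below this gene level in replicate 1.

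Of the calcium handling genes, Jph2 encodes junctophilin 2, which ties the T-tubule to the sarcoplasmic reticulum. Its leading peak, in intron 3 of 6 (chr2:163189351-163190811), held 14 and 24 Pol II reads against 5 and 2 in input, or 9.10 and 8.69 RPM. Cacng1, the γ subunit of the T-tubule calcium channel, held 27 and 44 reads against 9 and 10 in its first intron, 1065 bp from the start. In Ryr1 the leading peak held 8 and 13 reads against 3 and 3, in intron 61 of 105. All 3 peaks lay above input in both replicates.

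The remaining peaks of the 10 with most Pol II were in genes of other kinds. The peak in Hspa1b, an inducible heat shock protein of the Hsp70 family, came second by the lower ratio. It held 17 and 27 Pol II reads, at 10 and 14 distinct positions, against 1 and 0 in input. The peak is uncertain, since it rests on few positions and input was close to 0. A near-identical gene lies beside Hspa1b, and the part of this in the read counts was not tested. Tubb2a, a β-tubulin, held 21 and 37 Pol II reads against 2 and 6 in its first intron, 1316 bp from the start. Mtss1l, whose protein bends membranes with actin, held 8 and 20 against 2 and 3 in the untranslated part of the last exon, 456 bp from the end of the transcript. Spnb2 held 13 and 15 against 3 and 3 in intron 26 of 35, and Rian 9 and 29 against 3 and 5 in its last intron. Input at these last 4 peaks was 2 to 6 reads in each library, so that 1 input read more or less moves the ratio.

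In the other lists no peak was among the 10 highest of the set by the lower ratio. In Mef2d, a MADS-box activator of muscle genes, the leading peak held 7 and 12 Pol II reads against 1 and 5, in Runx1 7 and 20 against 5 and 3, and in Celf2 11 and 14 against 5 and 7. In the adhesion and cytoskeleton list Cdh15 (M-cadherin) held 11 and 21 against 3 and 7, Ahnak 13 and 21 against 7 and 5, and Plec (plectin) 7 and 18 against 4 and 1. In Hspg2, which encodes the basement membrane proteoglycan perlecan, the exonic leading peak held 7 and 13 against 2 and 3. Eno3, the muscle enolase, held 9 and 17 against 4 and 6 in a coding exon 334 bp from a transcript end, and Smad3, which carries TGF-β signals, 5 and 13 against 5 and 7. Pol II was above input in RPM in both replicates at each of these.

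The 3 peaks with most input reads stood apart from all others. The peak in the predicted gene Gm10801 (chr2:98503991-98504231) held 1944 and 5709 input reads, 136 and 190 Pol II reads and 666 and 250 Sox6 reads, and Pol II was not above input in either replicate, at 88.4 and 68.8 RPM against 88.5 and 235 RPM. The 2 peaks in Gm16869 on chromosome 9 held 143 and 852, and 191 and 592 input reads, and Pol II at both was below input in replicate 2, with log2 ratios of -1.67 and -1.24. Their input was over 10 times the median of 18 reads in both input libraries together, and all 3 lay at a common Sox6 peak. They are counted in the set, and the summed ratios are given with and without them.

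Whether Sox6 was found at the same places was asked with reads that the choice of peaks had not used, although the input is shared with the Pol II calls. Without the 3 high-input peaks, Sox6 summed over the gene-body peaks was 1.95 and 2.24 times input at the centre in replicates 1 and 2, 1.46 and 1.51 times at 2 kb, and 1.36 and 1.50 times at 5 kb. With all 2346 the centre values were 2.04 and 1.89 times, so the order of the replicates turned. Narrow peaks at starts stood at 1.77 and 1.97 times over 1341 peaks and at 3.76 and 0.956 times over all 1348, and narrow peaks outside genes at 2.36 and 2.43 times over 734 and at 2.69 and 1.10 times over all 737. The summed values of these other kinds thus turn on a few peaks of high input. At 1 kb the gene-body values were 1.48 and 1.58 times without the 3 peaks and 2.27 and 1.15 times with them. At the gene-body peaks Sox6 was above input at the centre and in the surroundings in both replicates. Without those 3 peaks the surroundings were lower than the centre in both replicates at each distance. With all 2346 this held at 2 kb (1.47 and 1.49 times) and at 5 kb (1.36 and 1.49 times), while at 1 kb replicate 1 exceeded its centre. In limma with a trend, fitted to the Sox6 and input libraries over all 17488 peaks with 0.5 reads added to each count, 340 of the 2346 peaks (14.5%, interval 13.1% to 16.0%) had more Sox6 than input at a Benjamini-Hochberg adjusted p under 0.05 and none had less. At an unadjusted p under 0.05, 663 had more and 1 had less, and no share over all peaks was computed for this. Limma voom called 332 higher (14.2%, against 11.3% of all peaks) and 0 lower. Both fits add 0.5 reads, which weighs more in the smaller Sox6 libraries than in input. A lower call was thus hard to reach at peaks of ordinary input, and limma voom is no check on this. The background is 11.3% of all 17488 peaks. The share was 11.3% at starts, 14.3% in broad peaks of both replicates, 21.6% outside genes and 9.86% in peaks of replicate 2 alone. No test of the differences between kinds of peak was made.

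This count leaned on single libraries and on how low counts were treated. It was 1063 without Sox6 replicate 1 (45.3%) and 671 without Sox6 replicate 2 (28.6%), where 42.0% and 24.0% of all peaks passed, and 71 without input replicate 1 (3.03%) and 90 without input replicate 2 (3.84%), where 2.09% and 2.76% passed. In each of these fits the lone library of a group is assumed to vary like the other group. When the same RPM value was added to each library in place of 0.5 reads, 157 peaks were higher (6.69%, against 4.74% of all peaks) and 242 lower, and the median log2 of Sox6 over input went from 0.90 to -0.07 for the gene-body peaks and from 0.83 to -0.45 for all peaks. The direction of the median gene-body peak thus depends on the pseudocount, while the summed ratios above contain none. With reads counted in the deposited interval of each peak 590 were higher (25.1%), against a background of 27.9%, so the order of gene-body peaks and all peaks turned under this setting. By an exact two-sided binomial test of Sox6 against input in each replicate, which needs no pseudocount, 48 passed an adjusted p of 0.05 in both replicates (2.05%), against a background of 1.29%, and all 48 were among the 340. A total of 61 peaks were called under the main settings and all 12 other limma settings, and no such share was computed over all peaks.

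Of the deposited peaks common to both Sox6 replicates, at least 1 lay within 50 bp of 66 gene-body Pol II peaks (2.81%, interval 2.18% to 3.57%), against a background of 1.59% of all peaks of replicate 2. Peaks at starts had 1.78%, peaks outside genes 3.93% and broad peaks 6.44%. The peak list of Sox6 replicate 1 had a peak at 127 (5.41%, background 3.35%) and that of replicate 2 at 106 (4.52%, background 2.34%), and broad peaks had 13.0% and 9.78%. Of the 66, 57 were also called higher in Sox6 by limma, which is to be read as the same reads counted again. Without the 3 high-input peaks the share was 2.69%.

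The 10 peaks with the largest Sox6 over input among those called included 8 at a common Sox6 peak, and all 10 passed the binomial test in both replicates and all 12 other limma settings. Sox6 was above input in both replicates at each of them. They were chosen as the called peaks with the largest ratios in these same reads. Passing the other settings was thus largely fixed by the choice. The largest was the coding-exon peak of Hspa1b (chr17:35094511-35094551), with 16 and 33 Sox6 reads against 1 and 0 in input, and 17 and 27 Pol II reads. These Sox6 reads lay at 9 and 19 distinct positions, and the near-identical neighbour of Hspa1b is Hspa1a. The fitted log2 ratio there was 8.23 (SE 0.75, limma adjusted p = 2.1e-24), which depends on the added 0.5 reads since input was close to 0.

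The next peaks had input reads of ordinary number. In an intron of Psmg2, an assembly chaperone of the proteasome, Sox6 gave 52 and 39 reads against 9 and 12 in input, or 17.4 and 26.6 RPM against 0.410 and 0.495, while Pol II gave 2 and 11. In Gm10384, whose sequence is shown above, Sox6 gave 37 and 24 reads against 11 and 8, and Pol II 6 and 8. Fig4, a phosphoinositide phosphatase, had 37 and 26 Sox6 reads against 13 and 14 in its first intron, with a log2 ratio of 4.63 (SE 0.45, limma adjusted p = 1.1e-21). These 3 had more Sox6 than Pol II in RPM in both replicates.

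In the first intron of Macf1, at the most upstream of its 79 peaks, Sox6 gave 21 and 13 reads against 6 and 9 in input, and Pol II 13 and 15. Of the 10 genes with most peaks, limma called 4 of 79 higher in Sox6 in Macf1, 3 of 26 in Runx1, 2 of 51 in Ncam1, 2 of 51 in Neb, 2 of 28 in Celf2, 1 of 40 in Spnb2, 1 of 27 in Dclk1, and none of the 60 in Nav2, the 27 in Ryr1 or the 25 in Rbfox2, against a background of 11.3%. At an unadjusted p under 0.05 there were 8 in Macf1, 6 in Nav2, 2 in Ryr1 and 2 in Rbfox2, with no share over all peaks computed. Limma voom called 5, 0, 0 and 1, where 11.3% of all peaks passed. Tmem123, which encodes a small transmembrane protein, had 36 and 21 Sox6 reads against 9 and 18, and A430010J10Rik 19 and 18 against 7 and 12. Iqsec1, which activates the small GTPase Arf6, had 10 and 15 against 9 and 4, and the tetraspanin gene Tspan14 17 and 18 against 7 and 13. The exonic peak of 4933426M11Rik, in the untranslated part of the last exon, had 33 and 16 against 14 and 14. At the Macf1 peak Pol II stood at 8.45 and 5.43 RPM and Sox6 at 7.03 and 8.85 RPM, so neither was higher in both replicates.

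**Figure D4:**
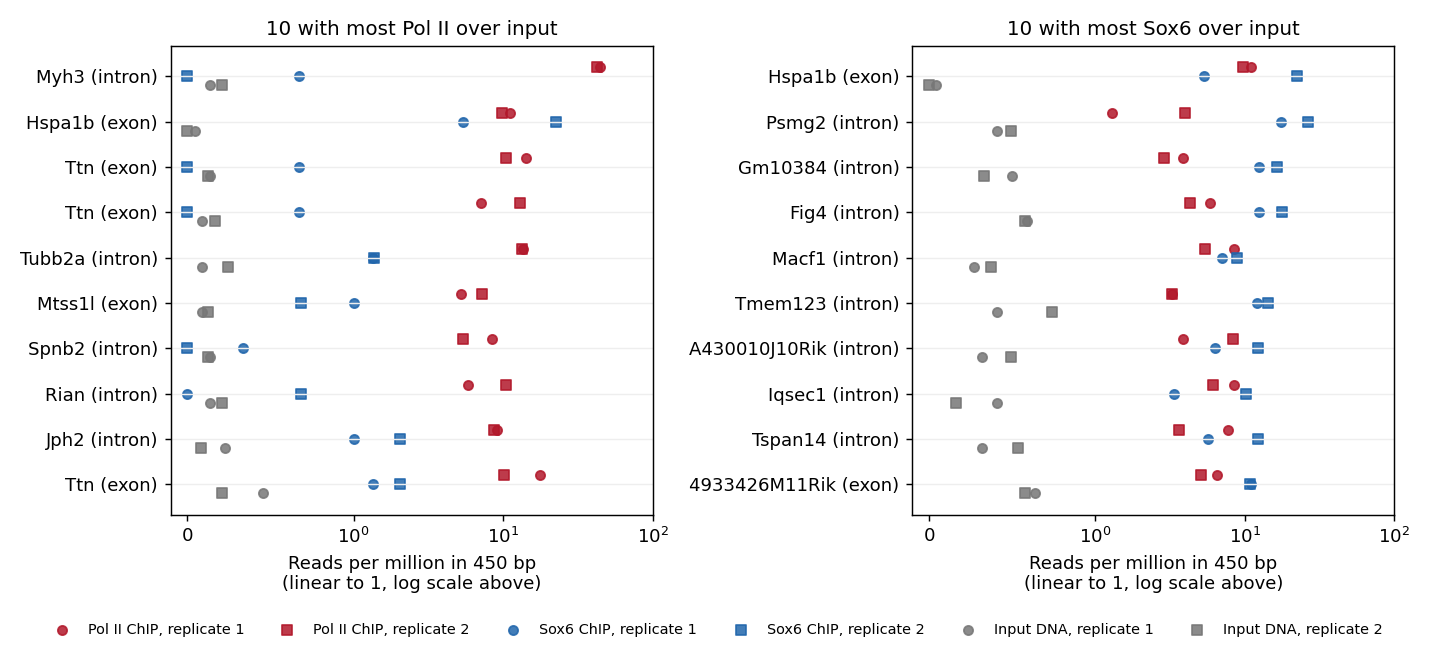
RPM in 450 bp (x axis, linear up to 1 and logarithmic above) for each library at the 10 peaks with most Pol II over input and the 10 with most Sox6 over input, with circles for replicate 1 and squares for replicate 2. Pol II lies above input at every peak shown, from 44.2 and 42.7 RPM in Myh3 downwards, and Sox6 reaches 17.4 and 26.6 RPM in Psmg2.

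The share of peaks called higher in Sox6 was at or below the background in the 4 muscle lists with most peaks. Of the 139 peaks in giant, Z-disc and M-band genes 9 were called (6.47%), of 97 in calcium handling genes 4 (4.12%), of 108 in cytoskeleton and adhesion genes 9 (8.33%), and of 110 in the genes of transcription and splicing regulators 12 (10.9%), against 14.5% over the set and a background of 11.3%. Of the 16 peaks in contractile genes 2 were called, of 17 in matrix genes 2, of 10 in metabolism genes 2 and of 6 in growth and signalling genes 4. Median log2 ratios were 0.87, 0.97, 0.89 and 0.73 in the first 4 lists and 0.90 over the set. Peaks of 1 gene share its level, so these shares are descriptions of a few genes. At the Myh3 peak Sox6 gave 2 and 0 reads, and at 2 of the 3 Ttn peaks 2 and 0, and limma did not call these 3 (adjusted p = 0.40, 0.29 and 0.27), while at the other Ttn peak, with 4 and 3 reads, the log2 ratio was 2.53 (SE 0.68, limma adjusted p = 0.0046). Of the 10 peaks with most Pol II over input, 5 passed in limma (this Ttn peak, Hspa1b, Jph2, Tubb2a and Mtss1l), but only Hspa1b passed the binomial test in both replicates and none lay at a common Sox6 peak. These 10 were chosen for a high ratio to the same input reads that Sox6 is divided by, so a raised Sox6 ratio at them is partly fixed by the choice, and the Ttn value is a description.

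In GC content, CpG ratio and GC-box letters, the gene-body peaks resembled their surroundings more than starts. Over the 300 bp at each centre the median GC content was 47.7%, against 47.0% in windows 2 kb to either side and 55.7% at starts, and the ratio of observed to expected CpG was 0.191 against 0.196 and 0.595. The GC-box letters GGGCGG occurred in 5.54% of gene-body peaks, in 6.61% of the flanking windows, in 32.9% of peaks at starts and in 10.9% of all peaks. The letters TATAAA occurred in 13.6%, which lay between 18.3% in the flanks and 9.27% at starts, and in 13.7% of all peaks.

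An E-box match was present in 982 gene-body peaks (41.9%, interval 39.9% to 43.9%), against 35.1% of flanking windows, 34.6% of peaks at starts, 39.6% of all peaks of replicate 2 and 43.4% of narrow peaks outside genes (39.8% to 47.1%). A Sox match was present in 36.0%, against 34.3%, 24.8%, 32.9% and 37.2% of the same sets. Matches to GGAATG, the letters bound by Tead factors, were found in 17.0%, against 15.4% of the flanks, 16.5% of all peaks and 19.1% of narrow peaks outside genes. The shares outside genes were thus above those of gene-body peaks for these 3 motifs, with intervals that overlap. Matches were found to TGANTCA, bound by AP-1, in 8.70% of gene-body peaks, 8.21% of the flanks and 8.38% of all peaks, and to CCACA, part of the Runx site, in 67.0%, 62.6% and 65.0%. MEF2 sites were found in 3.92% against 4.31% and 3.45%, and CArG boxes in 1.41% against 1.34% and 1.54%. Both strands were searched, and matches to different motifs may overlap.

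E-box matches were more frequent in the peaks called higher in Sox6, by intervals that do not overlap and with no test made. A match was found in 214 of the 340 called (62.9%, interval 57.6% to 68.1%) and in 768 of the 2006 not called (38.3%, 36.2% to 40.5%). Over the other peaks of replicate 2 the shares were 58.7% and 36.9%, so the pattern was not limited to gene bodies. The called gene-body peaks also had a higher GC content, at a median of 51.7% against 47.3%, and GC content moves with the E-box letters. Within quartiles of GC content the shares in called and other peaks were 38.5% and 24.1% in the lowest, 54.2% and 34.9% in the second, 60.2% and 43.3% in the third, and 74.5% and 55.7% in the highest. In the lowest quartile, with 15 of 39 called peaks, the intervals overlapped (23.4% to 55.4% against 20.7% to 27.8%), and in the other 3 quartiles they did not. The Sox letters showed a smaller difference, at 38.5% of the called (33.3% to 43.9%) and 35.6% of the others (33.5% to 37.7%). The Tead letters GGAATG were found in 22.9% of the called (18.6% to 27.8%) and 16.0% of the others (14.4% to 17.7%), and TATAAA less often in the called, at 8.82% (6.03% to 12.4%) against 14.5% (12.9% to 16.1%), so the E-box was not alone in intervals that do not overlap. Of the 66 peaks at a common Sox6 peak 38 had an E-box match (57.6%, 44.8% to 69.7%). The part of GC content, mappability and fragment length in these shares was not tested.

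**Figure D5:**
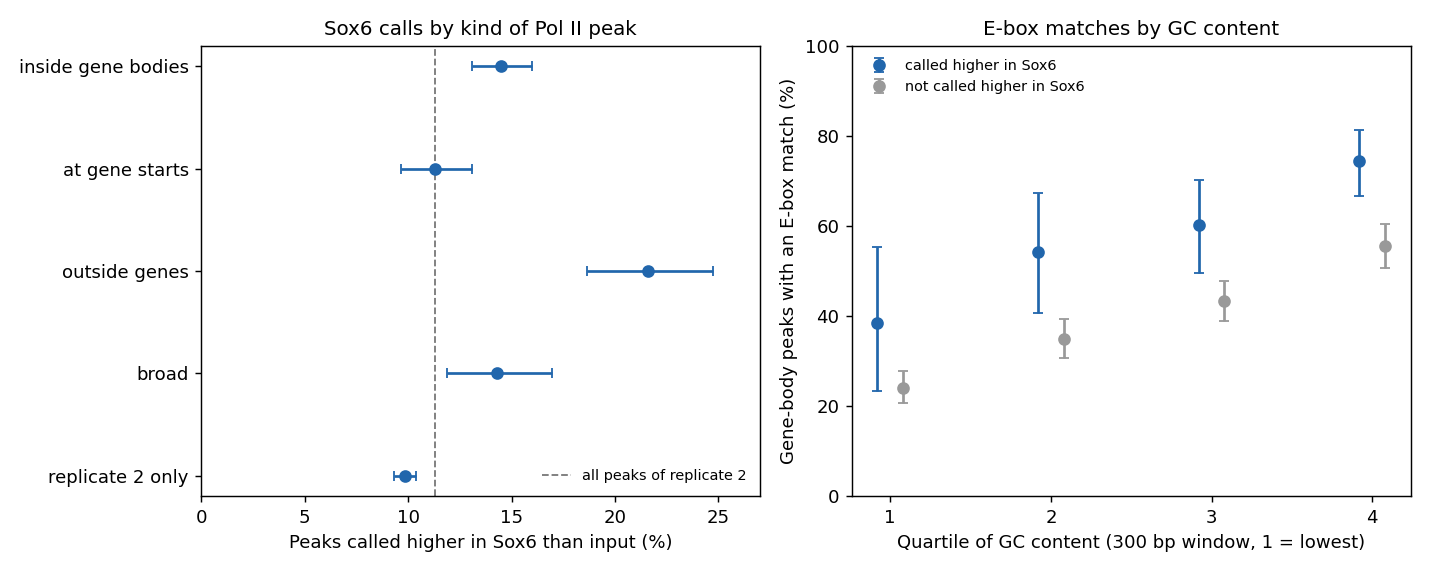
Left, share of Pol II peaks called higher in Sox6 than in input (x axis, %) by kind of peak, with exact 95% binomial intervals and the share over all peaks of replicate 2 as a dashed line. Right, share of gene-body peaks with an E-box match (y axis, %) by quartile of GC content, for the 340 called and the 2006 not called, with the same intervals, where called peaks have the larger share in each quartile and the intervals overlap in the lowest.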

How the data were processed

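Single-end reads of 6 libraries, size-selected at 300 to 600 bp after 18 cycles of PCR, were aligned by the authors with Bowtie 0.12.5 to NCBI Build 37 (mm9), and reads mapping to a single place were kept. Peaks were called by the authors with SISSRs 1.4, which was given an average DNA fragment of 450 bp and each experiment's own input as background. Sox6 peaks of the replicates that lay no more than 50 bp apart were joined as common peaks by the authors with ChIP-Seq Tool Set 1.0. What was deposited are positions of reads and peaks, without any count column, and the deposited score of each peak was not used. Genes, 37273 in all, with 86842 starts, were those of GENCODE vM1 on the same build, and a peak in several genes was given to the shortest protein-coding one.

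Reads were counted by 5′ end in 450 bp around each peak centre and scaled to library size, with 0.5 reads added for log2 ratios. Sox6 was compared with input in limma 3.58.1 (R 4.3.3) with a trend over all 17488 peaks, Benjamini-Hochberg at 0.05, two-sided, and the script was tested on simulated data. Python 3.11.15 with pysam 0.24.0 was used otherwise. Reads are not independent molecules, and binomial intervals (95%, exact) cover counting error only. P-values rest on a variance that limma drew from all peaks of like read level, with 2 experiments per group. Leading peaks in Spnb2 (Sox6 log2 ratios 1.66 and 1.24) and Ryr1 (0.07 and 2.82) both had an SE of 1.06. The SEs and p-values thus do not measure how far the replicates differed at a single peak. Named peaks were the 10 with most Pol II over input (lower replicate), the 10 with most Sox6 over input among those called, the leading peak of the 5 genes with most, up to 3 per gene list, the 3 with most input, and those next to each limit. The members and lists were chosen with earlier results of these data known. Alternatives are given in the closing section.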

Additional observations from a re-analysis of the deposited data

How the results depend on the processing

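The number of gene-body peaks called higher in Sox6 ran from 332 to 390 with 1000 bp windows, repeated positions counted once, scaling to reads outside peaks, a filter of 10 reads and limma voom. Under these settings 11.3% to 12.6% of all peaks tested passed. The called peaks themselves changed more than their number. With 1000 bp windows, 245 of the 390 (62.8%) were among the main 340. The number went to 590 with reads of the deposited interval (25.1%, below the 27.9% of all peaks, where the main share of 14.5% was above 11.3%). It went to 157 with a pseudocount equal in RPM (6.69% against 4.74%), and to 48 by the binomial test in both replicates (2.05% against 1.29%). Leaving out 1 library gave 71 to 1063, so the count depends on each of the 4 libraries. With the replicate number as a block it was 312, of which 310 were among the 340. The labels do not say that equal numbers share a culture, and the replicate differences of Sox6 and input correlated at 0.00305 over 16344 windows, so the block stands as a check only. The cause of these shifts was not tested.

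The median log2 ratio of Pol II to input was 3.36 in 1000 bp windows and 3.32 with a pseudocount equal in RPM, against 3.47, and 3.39 to 3.53 with 1 replicate left out. The set had 868 peaks when at least 50% of the width was shared, and 1688 to 2601 under the other rules. The share in exons was 11.9% by the longest transcript and 28.0% for any base. Peaks of the Sox6 replicate 1 list lay at 5.41% (3.35% of all peaks) and of the replicate 2 list at 4.52% (2.34%). E-box matches were found in 31.8% of 200 bp and 54.0% of 450 bp windows, against 29.1% and 51.9% over all peaks of replicate 2. A peak at a start was found for 56.7% of host genes within 500 bp and 73.9% within 2 kb, with the gene-body peaks themselves counted. Over all protein-coding genes these shares were 13.3% and 16.8%. Leaving out the 3 peaks with most input, chosen after the data were seen, left 2343 peaks, 340 Sox6 calls and 2.69% with a common Sox6 peak. At the 10 named Sox6 peaks the call held under all 12 other limma settings, which their choice as the largest called ratios largely fixed. Of all 340 calls, 61 held under every limma setting. Depth limits single peaks, since the median peak holds 7 and 12 Pol II reads.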
